A study of Homo sapiens with 6 samples.

Results

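The genes described here are 40 genes of the unfolded protein response and of protein folding in the endoplasmic reticulum (ER), out of 58336 genes in the count table. They were chosen by name and function: 6 sensors and transcription factors, 11 lumenal chaperones and cofactors, 3 genes of the lectin chaperone cycle, 6 disulfide enzymes, 10 genes of ER-associated degradation and 4 genes of the translocon and of ER exit. The choice was made with earlier results of these data known. All 40 were found by symbol, and all 40 passed the filter on low counts that left 17349 genes in the test. The study set 3 RNA sequencing libraries of H1299 cells with the PLVT7 MOCK vector beside 3 with the PLVT7 CCNB1 vector, which delivers an shRNA, a hairpin that silences CCNB1 (cyclin B1). These cells are an established human line from a lung tumour, which the labels give as lung adenocarcinoma. Both groups were selected with 1 µg/ml puromycin on cells 14 days past confluence and grown with 10% serum, and the labels name no further agent, no second hairpin and no clone. The total count per library lay between 28122665 and 30332989.

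The ER folds secreted and membrane proteins with chaperones, sugar-binding lectins and enzymes that form disulfide bonds. When unfolded protein builds up, the sensors IRE1 (gene ERN1), ATF6 and PERK signal to the nucleus, and the factors XBP1, ATF6 and ATF4 raise the genes of folding, degradation and export. Many of these genes carry an ER stress response element in the promoter, which ATF6 and XBP1 bind with the factor NF-Y. Carcinoma lines rely on this machinery for their secretory load, and HSPA5 (also called BiP or GRP78) is its best-known readout.

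Promoter sequences are shown first because they hold the feature most particular to this pathway. Windows of 250 bases before to 50 bases after the start were taken from RefSeq on GRCh38.p14, and 36 of the 40 genes had a window. The ER stress response element was searched on both strands as CCAAT, any 9 bases, then CCACG. It lay in 8 of the 36 genes (22.2%), against 25 of all 27305 genes with a window (0.0916%). The related element II, ATTGG, any 1 base, then CCACG, lay in 3 of 36 (8.33%), against 19 of all genes (0.0696%). The unfolded protein response element TGACGTGG lay in DNAJC10 and HYOU1, or 5.56%, against 253 of all genes (0.927%). The letters CCACG alone, which are part of both stress elements, were in 26 of the 36 genes and in 42.1% of all genes. Only exact matches were counted and marked, so near matches of an element do not appear in these counts. The elements were searched because many genes of this pathway are known to carry them. Their higher shares among the members are therefore a description and no independent finding. A match is a description of these letters and not a measure of binding.

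The stretches upstream of 3 chaperone genes show how these elements lie, with capitals marking the elements. HSPA5 was printed as the pathway's readout, and HYOU1 and HSP90B1 because they are among the 12 members with the smallest p. The HSPA5 stretch is chr9:125241344-125241493, minus strand, and holds 1 exact match of the stress element. The HYOU1 stretch is chr11:119057206-119057405, minus strand, and holds 2 copies of element II, the first of them overlapping the unfolded protein response element. The HSP90B1 stretch is chr12:103930210-103930409, plus strand, and holds 2 stress elements, 1 on each strand. Each ends 1 base before the RefSeq start, which for HSP90B1 lies inside the longer gene of GENCODE 29.
HSPA5: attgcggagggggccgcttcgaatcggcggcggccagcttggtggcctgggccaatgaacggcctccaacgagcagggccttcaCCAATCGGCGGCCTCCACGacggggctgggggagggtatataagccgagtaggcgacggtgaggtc
HYOU1: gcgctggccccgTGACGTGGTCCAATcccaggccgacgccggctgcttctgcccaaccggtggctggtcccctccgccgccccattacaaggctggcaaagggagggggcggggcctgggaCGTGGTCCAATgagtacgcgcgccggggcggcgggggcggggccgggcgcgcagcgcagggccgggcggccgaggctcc
HSP90B1: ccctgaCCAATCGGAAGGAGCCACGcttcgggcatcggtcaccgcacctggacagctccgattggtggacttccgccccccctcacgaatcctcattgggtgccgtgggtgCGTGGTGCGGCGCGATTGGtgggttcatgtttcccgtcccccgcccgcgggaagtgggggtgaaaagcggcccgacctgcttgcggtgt

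The single elements of the other carriers are set side by side so that their shared ends and differing middles can be read. Each is written on the strand where the element reads forward, with 4 flanking bases on each side in lower case. On GRCh38.p14 they lie at chr22:28800599-28800625, minus strand (XBP1), chr19:12938380-12938406, minus strand (CALR), chr5:179698774-179698800, plus strand (CANX), and chr2:10812849-10812875, minus strand (PDIA6). Those of CRELD2 and ERO1B lie at chr22:49918550-49918576, minus strand, and chr1:236282179-236282205, plus strand. Elements II lie at chr16:56932021-56932039, plus strand (HERPUD1), and chr22:21642110-21642128, minus strand (SDF2L1), and the DNAJC10 element at chr2:182716128-182716143, minus strand.
XBP1: ctggCCAATCGCGGAGGGCCACGaccg
CALR: ccgaCCAATGATGGTCGACCACGcgtg
CANX: ccggCCAATCTTCACACTCCACGaaga
PDIA6: cggaCCAATGAGCCGCAGCCACGgctt
CRELD2: tggcCCAATCCGAGTTCGCCACGagag
ERO1B: gcggCCAATGAGGCGGGACCACGcggg
HERPUD1: gccgATTGGGCCACGttgg
SDF2L1: tttgATTGGTCCACGcttc
DNAJC10: aggtTGACGTGGcggt

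In the mock cells the members spanned a wide range of levels per gene length, given here as the authors' deposited FPKM, which scales reads by gene length and library total. HSPA5 was the highest at 232 ± 46.0 FPKM (SD, n = 3), above 99.3% of the genes tested. HSP90B1, the ER form of HSP90, followed at 169 ± 25.2 FPKM, and CANX, CALR and P4HB lay between 110 and 126 FPKM. The SDs of HSPA5 and HSP90B1 overlapped, although HSPA5 was the higher in each mock library. The SD of CANX overlapped those of CALR and P4HB, so its order among them was not resolved. The sensors were far lower, with ERN1 at 2.44 ± 0.197 FPKM and ATF6 at 7.66 ± 0.777 FPKM. DERL3 was the lowest, at 0.229 ± 0.0876 FPKM.

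**Figure D1:**
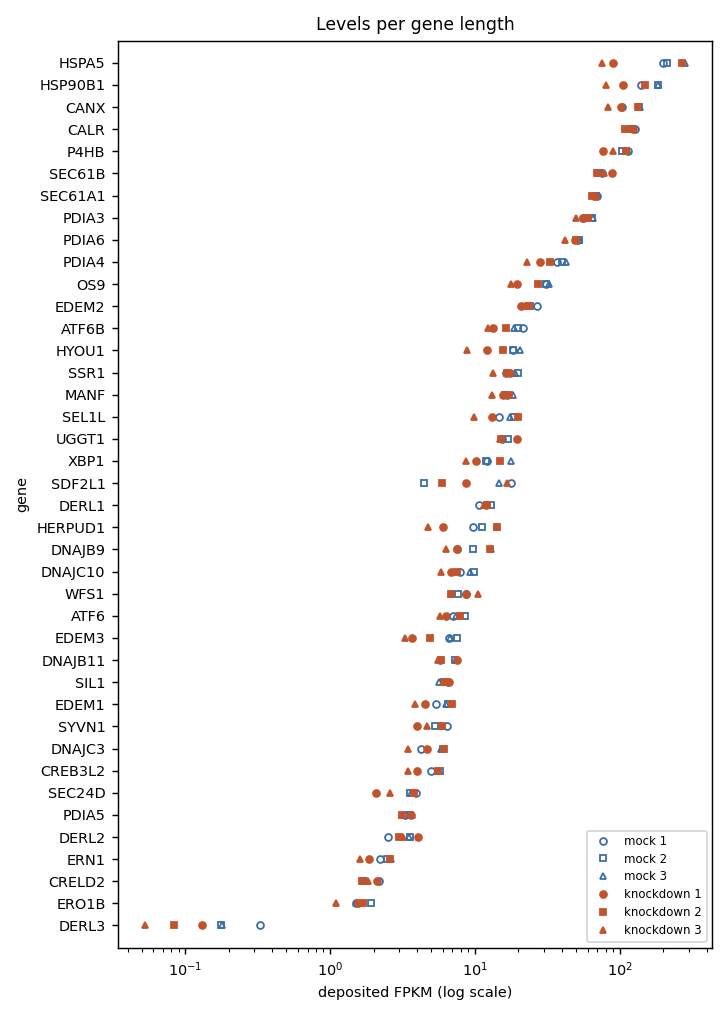
Deposited FPKM on a log axis for each of the 40 genes, with open blue symbols for the 3 mock and filled orange symbols for the 3 knockdown libraries. The lumenal chaperones HSPA5 and HSP90B1 are at the top and DERL3 at the bottom, and the knockdown 1 and 3 symbols of HSPA5 sit apart from the other 4.

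CCNB1 itself was at 323, 305 and 294 CPM (the count per library, scaled to a common library size), in mock libraries 1, 2 and 3. It was at 19.9, 29.9 and 16.1 CPM in knockdown libraries 1, 2 and 3, so the target was low in each (log2 fold change -3.81, adjusted p = 0.000215 in edgeR's quasi-likelihood test). Knockdown library 2 stood apart from the other 2 knockdown libraries over the whole transcriptome. Over all genes tested, on the first principal component, which held 49.7% of the variance, it lay at -13.3, beside the mock libraries at -18.5 to -13.3, while knockdown libraries 1 and 3 lay at 31.9 and 29.7. Results are given with all 6 libraries, and values without knockdown library 2 stand beside them. That library was singled out for its expression, the quantity compared. Its CCNB1 was also far below mock, at 9.72% of the mock mean, though higher than the 6.48% and 5.24% of knockdown libraries 1 and 3. The fit without it sets only the 2 knockdown libraries that differ from mock against mock, so its p-values are no test of the knockdown. Many of its folds are enlarged, while some, such as those of SDF2L1 and CALR, are smaller. Values of that fit are given as a description of those libraries. Among the defining markers of lung epithelium, SFTPC was at 0 in 5 of 6 libraries, NKX2-1 reached 0.450 CPM and EPCAM 0.439 CPM, while KRT8 and KRT18 were abundant. The 7 epithelial markers summed to between 605 and 689 CPM in mock and to between 840 and 1650 CPM in knockdown libraries, and 4 of the 7 passed 1 CPM in any library. Nearly all of these sums came from KRT8 and KRT18. Of the others, none above 3.32 CPM in any library, EPCAM, CDH1 and KRT7 had higher knockdown means and KRT19 and ESRP1 lower ones. The 5 lung alveolar markers summed to between 0.493 and 0.900 CPM in mock and to between 0.658 and 1.11 CPM in knockdown libraries, and 0 of them passed 1 CPM. The 5 fibroblast markers summed to at most 1.76 and 3.71 CPM, the 4 endothelial markers to at most 2.67 and 2.98 CPM, and the 3 red cell markers to at most 0.796 and 2.25 CPM. The 6 leukocyte and plasma cell markers summed to 6.58 to 9.08 and 5.65 to 14.6 CPM, nearly all from SDC1, and PTPRC was at 0 in all 6 libraries. Mitochondrial transcripts took 1.79% to 2.18% of mock and 2.14% to 2.77% of knockdown counts. The part of these differences in the results below was not tested, and in bulk RNA fewer cells of a type and less RNA per cell cannot be told apart.

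Most of the 40 genes were lower with the CCNB1 shRNA, by modest amounts, and none passed the threshold when all 6 libraries were used. The fitted log2 fold change of knockdown against mock was below 0 for 36 of 40 members, against 46.7% of all genes tested, and its median was -0.27 against 0.02 over all genes tested. Since the members were chosen with earlier results of these data known, this contrast is a description and no test. The threshold was an adjusted p of 0.05 in edgeR, with adjustment over all 17349 genes. Past it lay 0 of 40 members, where the background was 0.0231%, all of it lower and 0% higher. At an unadjusted p under 0.05 there were 8 members, all lower, or 20.0%, against a background of 15% in either direction, 6.88% lower and 8.14% higher. DESeq2 called 7 members, all lower, where its background of lower calls was 2.27% of the same 17349 genes. These 7 were EDEM3, ATF6B, PDIA4, HYOU1, DNAJC10, OS9 and HSP90B1. In CPM, all 3 knockdown libraries lay below all 3 mock libraries for 10 of 40 members, against 8.84% of all genes, and above them for 0, against 10.9%. This depends on the scaling, since CALR and SSR1, counted here, overlapped in the deposited FPKM.

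The libraries did not share this equally. The median member differed from the mock mean by -0.36 in knockdown library 1, by -0.07 in library 2 and by -0.49 in library 3, on the log2(CPM + 1) scale. The mock libraries themselves lay at -0.06, -0.03 and 0.05. Below the mock mean were 33, 26 and 36 of the 40 members in knockdown libraries 1, 2 and 3. In mock libraries 1, 2 and 3 these counts were 24, 24 and 13, so the 26 of knockdown library 2 was near those of mock libraries 1 and 2. Knockdown library 2 held the highest of the 3 knockdown values for 28 members and knockdown library 3 the lowest for 28. Without any single library other than this one, 0 members passed the threshold. Without knockdown library 2, 17 of 40 members were past it, all lower, or 42.5%, where the background of that fit was 13.8%, made of 7.58% lower and 6.24% higher. This count follows in part from which library was left out, since that library held the highest knockdown value of most members.

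**Figure D2:**
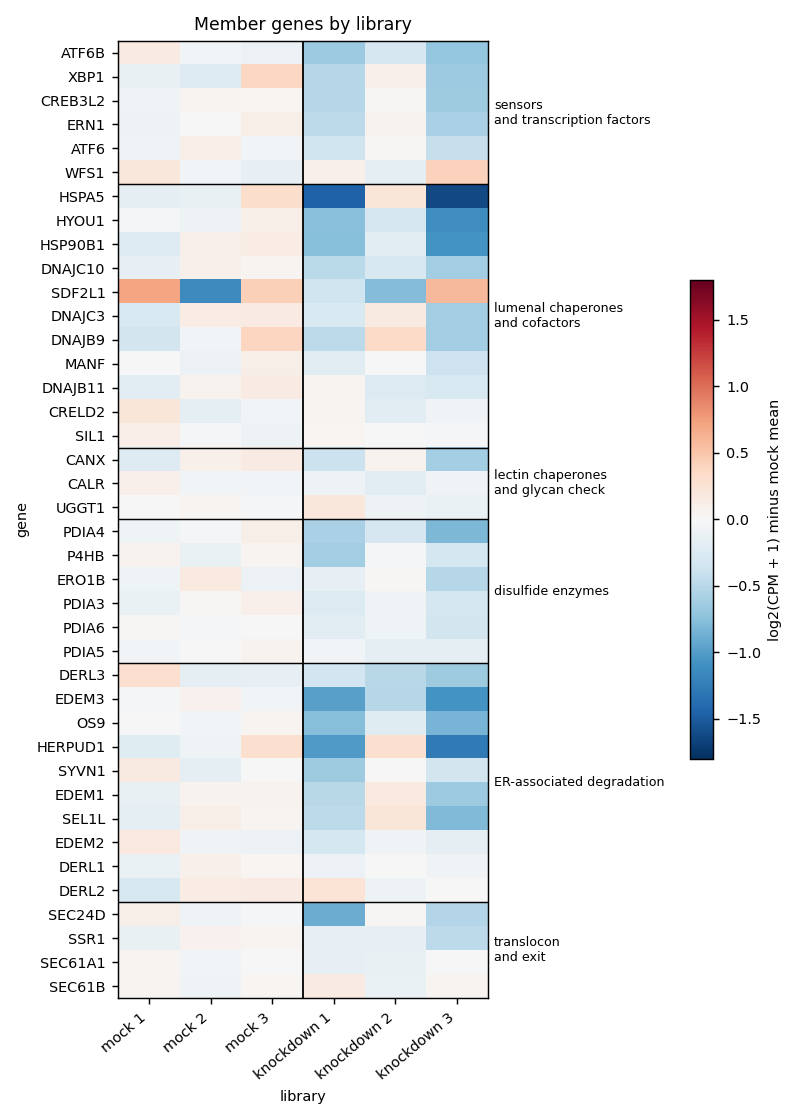
Difference of log2(CPM + 1) from the mock mean for the 40 genes (rows, grouped by function) in the 6 libraries (columns), blue for lower and red for higher. Knockdown libraries 1 and 3 are mostly blue, and knockdown library 2 is pale for most genes. The lowest there are SDF2L1 at -0.78, EDEM3 at -0.52 and DERL3 at -0.50.

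Of the 6 sensors and transcription factors, 5 had a fitted value below 0, with a median of -0.34. Without knockdown library 2 the median was -0.57 and 4 were past the threshold, all lower. In that fit 7.58% of all genes were called lower and 6.24% higher, which is the background for such counts in each function group. That library was left out for its expression, so none of these counts is a test. ATF6B had the smallest p of the 6 with all libraries. ATF6B (ENSG00000213676, chromosome 6 from 32115264 to 32128253, minus strand, GRCh38) encodes a membrane-bound factor related to ATF6. It was at 81.6, 71.4 and 68.6 CPM in mock libraries and at 46.3, 59.8 and 44.9 CPM in knockdown libraries. All 3 knockdown values lay below the mock values, and library 2 was the closest to them. Its log2 fold change was -0.55 (SE 0.15, adjusted p = 0.145 in edgeR), and -0.70 with an adjusted p of 0.00557 without knockdown library 2. Of its exon bases 9.92% are shared with TNXB or AL662884.2, so its counts are uncertain.

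ATF6, the sensor that travels to the Golgi and is cut there, was at 57.9, 66.8 and 59.5 CPM in mock libraries and at 47.4, 62.1 and 45.6 CPM in knockdown libraries. ERN1, the gene of the kinase and RNase IRE1, was at 25.1, 26.6 and 29.04 CPM and at 19.2, 28.2 and 17.5 CPM. In both genes knockdown libraries 1 and 3 lay below the mock range and library 2 lay within it. XBP1 (chromosome 22 from 28794555 to 28800597), whose messenger RNA IRE1 splices, was at 38.3, 35.7 and 55.0 CPM and at 29.3, 45.1 and 26.5 CPM. The groups overlapped, since knockdown library 2 exceeded mock libraries 1 and 2. The adjusted p-values in edgeR were 0.463 for ATF6, 0.453 for ERN1 and 0.492 for XBP1. Leaving knockdown library 2 out, the log2 fold changes were -0.40 for ATF6, -0.56 for ERN1 and -0.63 for XBP1, with adjusted p-values of 0.0429, 0.0193 and 0.0512. Counts of other members whose exons overlap a neighbouring gene are uncertain in the same way. The shared part was 25.2% in PDIA6, 23.2% in DNAJB11, 18.9% in PDIA3, 14.3% in PDIA5, 13.5% in OS9 and 10.1% in SYVN1. It was between 6.45% and 9.98% in P4HB, CALR, EDEM1, SIL1, HYOU1, HSP90B1, SEC61A1, DERL1 and DNAJB9, and at most 4.71% in DERL2, CRELD2, CANX, SSR1 and DNAJC10. Counts per gene do not separate the spliced from the unspliced XBP1 form, so splicing was not measured.

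CREB3L2, a membrane-bound factor of the same class as ATF6, was at 45.6, 49.7 and 49.0 CPM in mock and at 33.4, 48.9 and 30.6 CPM in knockdown libraries. Its mock values were tight and its knockdown values split, with library 2 inside the mock range. Its log2 fold change was -0.35 (SE 0.18, adjusted p = 0.379 in edgeR), and -0.59 with an adjusted p of 0.0100 without knockdown library 2. WFS1, the gene of wolframin in the ER membrane, was one of the few members with a fitted rise. It was at 40.6, 34.2 and 31.6 CPM and at 37.5, 31.1 and 47.6 CPM, and the groups overlapped (log2 fold change 0.13, SE 0.17, and -0.05 without knockdown library 3).

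All 11 lumenal chaperones and cofactors had a fitted value below 0, with a median of -0.23. Without knockdown library 2 the median was -0.48 and 4 were past the threshold, all lower, against 7.58% of all genes. HSPA5 (ENSG00000044574, chromosome 9 from 125234853 to 125241330, minus strand, GRCh38) encodes BiP, the HSP70 of the ER that also holds the sensors inactive. It was at 803, 828 and 1135 CPM in mock libraries and at 331, 1061 and 296 CPM in knockdown libraries. Libraries 1 and 3 lay far below every mock library, while library 2 lay near the top of the mock range, 3.20-fold above library 1 and 3.59-fold above library 3. The log2 fold change was -0.71, with a 95% interval from -1.65 to 0.23 and an adjusted p of 0.454 in edgeR. Knockdown libraries 1 and 3 alone lay 2.94-fold below mock in the fit without library 2, a log2 fold change of -1.56 with an adjusted p of 0.000618. That value rests on leaving out the library where HSPA5 was high, and with all 6 libraries no difference in HSPA5 was shown.

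HSP90B1 (ENSG00000166598, chromosome 12 from 103930107 to 103953645, plus strand) encodes GRP94, which folds a limited set of clients that includes integrins. It was at 682, 853 and 881 CPM in mock and at 469, 703 and 381 CPM in knockdown libraries. Knockdown library 2 lay just above mock library 1, and the other 2 lay below all mock libraries. Its fitted log2 fold change was -0.64 (SE 0.21, adjusted p = 0.217 in edgeR), and -0.93 with an adjusted p of 0.00444 without knockdown library 2.

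HYOU1 (ENSG00000149428, chromosome 11 from 119044189 to 119057202, minus strand) encodes GRP170, which exchanges nucleotide on BiP. It was at 147, 140.0 and 161 CPM in mock and at 88.0, 120.5 and 68.4 CPM in knockdown libraries, with no overlap between the groups. HYOU1 differed by -0.70 on the log2 scale (SE 0.19, 95% interval from -1.12 to -0.27, adjusted p = 0.157 in edgeR). Leaving out knockdown library 2 gave -0.94 with an adjusted p of 0.00282. SIL1, the other nucleotide exchange factor for BiP in the list, was at 24.9 ± 2.04 and 24.8 ± 0.621 CPM, with a 95% interval of the log2 fold change from -0.28 to 0.28.

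The J-domain cofactors of BiP differed among themselves. DNAJC10, the reductase ERdj5 (chromosome 2 from 182716041 to 182794464, plus strand), was at 180.3, 213 and 207 CPM in mock and at 142, 164 and 128 CPM in knockdown libraries. Its groups did not overlap (log2 fold change -0.47, SE 0.14, adjusted p = 0.167 in edgeR, and 0.0134 without knockdown library 2). DNAJB9, a known target of XBP1, was at 22.2, 27.4 and 37.2 CPM in mock and at 20.1, 36.1 and 18.0 CPM in knockdown libraries. DNAJC3, which also restrains PERK, was at 30.6 ± 4.99 and 26.1 ± 7.49 CPM. DNAJB11 was at 39.6 ± 5.03 and 35.4 ± 4.68 CPM. These 3 genes had overlapping groups and did not pass the threshold, also without knockdown library 2.

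The small lumenal proteins had overlapping groups. MANF, a secreted factor that binds BiP, was at 36.6 ± 2.72 and 31.9 ± 4.29 CPM, and CRELD2, a stress-induced isomerase-like protein, at 11.8, 8.72 and 9.52 CPM in mock and at 10.3, 8.59 and 9.42 CPM in knockdown libraries. SDF2L1, which works with DNAJB11, varied most among the mock libraries, at 20.2, 4.87 and 16.5 CPM, and was at 9.12, 6.54 and 18.5 CPM in knockdown libraries. Its highest mock value was 4.15-fold its lowest, against 1.41-fold for HSPA5, and its lowest knockdown value was in library 2, where HSPA5 was highest. The 95% interval of its log2 fold change ran from -1.37 to 0.80.

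**Figure D3:**
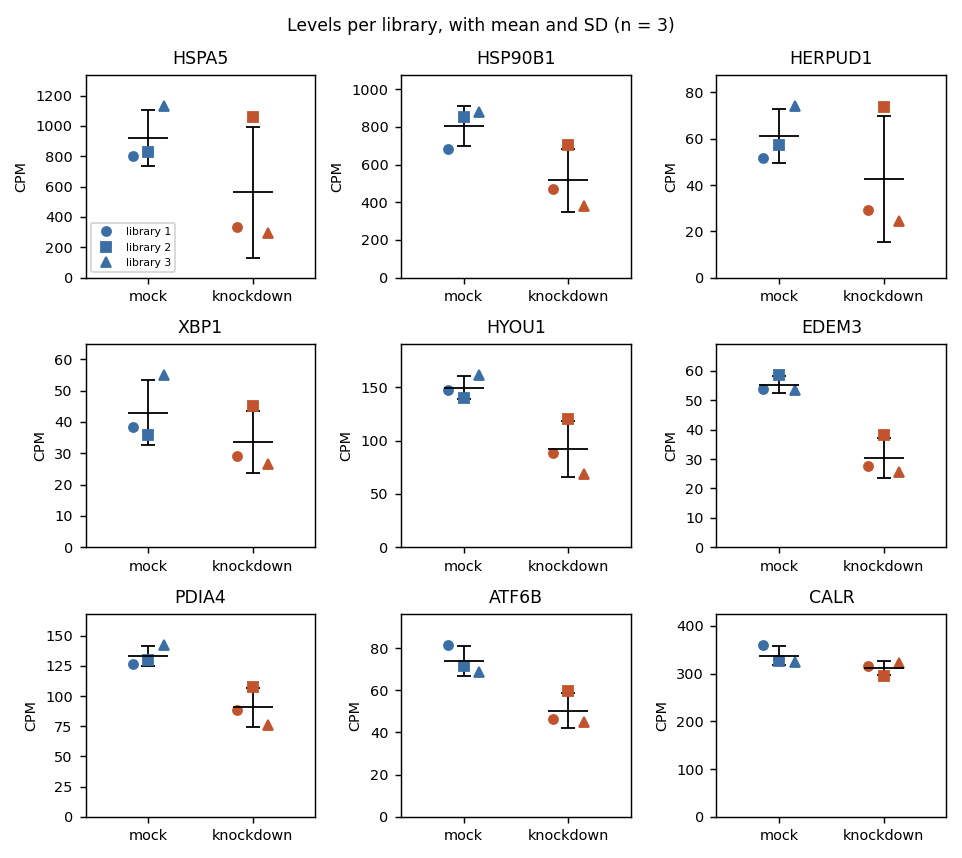
CPM of 9 genes in each library, with the mean and SD of 3 libraries per group as black bars and a symbol for each library number. Knockdown library 2 (orange square) is within the mock range for HSPA5, HSP90B1, HERPUD1 and XBP1 and below it for HYOU1, EDEM3, PDIA4 and ATF6B, and CALR lies close together in all 6 libraries.

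The lectin chaperone cycle, which holds sugar-bearing proteins until they fold, had 2 of 3 genes below 0 and a median of -0.12 (-0.08 without knockdown library 2, where CANX alone was past the threshold). CALR (chromosome 19 from 12938578 to 12944489, plus strand), the gene of calreticulin, was at 361, 327 and 325 CPM in mock and at 317, 295 and 323 CPM in knockdown libraries. The groups did not overlap in CPM, yet the difference was small, a log2 fold change of -0.12 with a 95% interval from -0.38 to 0.14. In FPKM they overlapped, with 122.9 in knockdown library 1 against 121.5 in mock library 2. CANX, its membrane-bound relative calnexin, was at 799 ± 109 and 653 ± 162 CPM (adjusted p = 0.488 in edgeR, and 0.0409 at -0.51 without knockdown library 2). UGGT1, the folding sensor that adds a glucose back to unfolded glycoproteins, was at 182, 189.8 and 179 CPM in mock and at 212, 172 and 169 CPM in knockdown libraries. Its fitted log2 fold change was 0.01, with a 95% interval from -0.28 to 0.30, and its sign changed under other settings, down to -0.13 without knockdown library 1.

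The 6 disulfide enzymes all had a fitted value below 0, with a median of -0.22. Without knockdown library 2, 2 of them were past the threshold, both lower, against 7.58% of all genes. PDIA4, also called ERp72 (ENSG00000155660, chromosome 7 from 149003062 to 149028641, minus strand), was at 126, 129.97 and 143 CPM in mock and at 88.2, 108 and 75.7 CPM in knockdown libraries. Its groups did not overlap (log2 fold change -0.56, SE 0.15, adjusted p = 0.148 in edgeR, and 0.00554 at -0.70 without knockdown library 2). P4HB, the classical protein disulfide isomerase, was at 624, 548 and 619 CPM and at 388, 588 and 478 CPM, with library 2 inside the mock range. Its adjusted p was 0.410 in edgeR and 0.0389 without knockdown library 2.

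PDIA3, the partner of calnexin and calreticulin, was at 266 ± 19.4 and 230.5 ± 21.5 CPM, and PDIA6 at 218 ± 2.90 and 189.8 ± 16.2 CPM. PDIA5 was at 14.4 ± 0.622 and 13.1 ± 0.700 CPM. ERO1B, an oxidase that recharges disulfide isomerases, was at 8.97 ± 1.13 and 7.64 ± 1.57 CPM. None of these 4 passed the threshold, also without knockdown library 2.

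ER-associated degradation, which extracts misfolded proteins to the proteasome, held the member with the smallest p. Of its 10 genes 9 were below 0, with a median of -0.31. Without knockdown library 2 the median was -0.61 and 5 were past the threshold, all lower, against 7.58% of all genes. EDEM3 (ENSG00000116406, chromosome 1 from 184690231 to 184754913, minus strand) encodes a mannosidase of the EDEM family, which trims sugars on proteins bound for degradation. It was at 53.8, 58.6 and 53.6 CPM in mock and at 27.5, 38.3 and 25.7 CPM in knockdown libraries. Every knockdown library, library 2 included, lay well below the mock range. EDEM3 differed by -0.86 on the log2 scale (SE 0.16, 95% interval from -1.22 to -0.49), with adjusted p-values of 0.0959 in edgeR and 0.000196 in DESeq2. With the other 5 libraries alone it was at -1.06 (adjusted p = 0.000625 in edgeR). Of its relatives, EDEM1 was at 41.7 ± 3.27 and 34.1 ± 11.3 CPM and EDEM2 at 47.9 ± 5.27 and 41.9 ± 3.63 CPM. Without knockdown library 2, EDEM1 was at -0.60 with an adjusted p of 0.0135, and EDEM2 was not past the threshold.

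OS9 (ENSG00000135506, chromosome 12 from 57693955 to 57721557, plus strand) encodes a lectin that hands trimmed proteins to the ubiquitin ligase. It was at 166, 159 and 171 CPM in mock and at 96.5, 142 and 91.9 CPM in knockdown libraries, with no overlap. OS9 differed by -0.58 on the log2 scale (SE 0.17, adjusted p = 0.167 in edgeR), and -0.81 with an adjusted p of 0.00150 without knockdown library 2. SEL1L and SYVN1, the adaptor and the ubiquitin ligase that OS9 serves, were at 164 ± 15.6 and 32.8 ± 3.97 CPM in mock and at 134 ± 49.8 and 26.3 ± 5.86 CPM in knockdown libraries. When knockdown library 2 was left out, SEL1L was at -0.63 with an adjusted p of 0.0162, and SYVN1 at -0.50 with an adjusted p of 0.0524.

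HERPUD1 (chromosome 16 from 56932048 to 56944863, plus strand), which gathers the ligase complex and is strongly induced by ER stress, is given by library because its pattern was like that of HSPA5, and was chosen after its values were seen. It was at 51.8, 57.3 and 74.3 CPM in mock and at 29.4, 73.7 and 24.5 CPM in knockdown libraries. Libraries 1 and 3 were low and library 2 was level with the highest mock library. Its log2 fold change was -0.52 (SE 0.36, adjusted p = 0.517 in edgeR), and -1.19 with an adjusted p of 0.00276 without knockdown library 2.

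The derlins, channel-like proteins of the ER membrane, showed no common direction. DERL1 was at 86.0 ± 6.30 and 82.7 ± 2.97 CPM. DERL2 was at 16.6, 22.5 and 22.9 CPM in mock and at 24.6, 19.1 and 20.4 CPM in knockdown libraries, so the groups overlapped. DERL3, which is prominent in secretory cells, was near the limit of detection at 1.30, 0.670 and 0.692 CPM in mock and 0.470, 0.318 and 0.202 CPM in knockdown libraries. That is 37, 19 and 20 counts against 15, 9 and 6, where 3 counts correspond to 0.0940 to 0.106 CPM. Its log2 fold change of -1.41 (SE 0.44, adjusted p = 0.188 in edgeR) is uncertain further, because 77.0% of its exon bases are shared with SMARCB1 on the opposite strand.

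At the translocon and at ER exit, 3 of 4 genes were below 0 with a median of -0.17, and SEC24D alone was past the threshold without knockdown library 2. SEC61A1, the pore, was at 330.3 ± 11.1 and 310.3 ± 17.7 CPM. SEC61B, its small subunit, was at 92.6, 85.3 and 91.9 CPM in mock and at 99.8, 82.5 and 92.9 CPM in knockdown libraries, with overlapping groups. SSR1, a subunit of the translocon-associated complex, was at 193, 222 and 219 CPM and at 189.9, 190.5 and 152 CPM, without overlap in CPM (log2 fold change -0.25, SE 0.14, adjusted p = 0.411 in edgeR). In FPKM its groups overlapped, with 17.6 and 16.8 in knockdown libraries 1 and 2 against 16.3 in mock library 1. SEC24D, a cargo adaptor of the COPII vesicles that leave the ER, was at 40.4, 35.3 and 36.6 CPM and at 19.6, 38.0 and 25.8 CPM. Libraries 1 and 3 lay below mock and library 2 within it (adjusted p = 0.378 in edgeR, and 0.0122 without knockdown library 2).

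**Figure D4:**
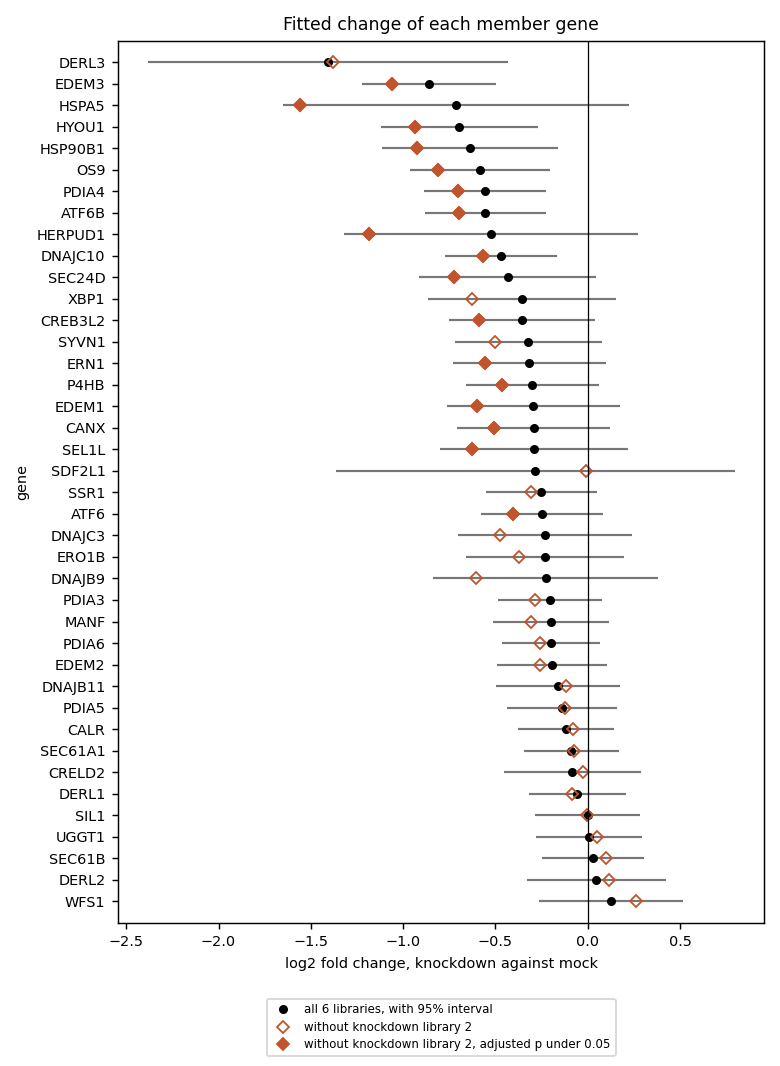
Fitted log2 fold change of knockdown against mock for the 40 genes, as black points with 95% intervals for all 6 libraries and diamonds for the fit without knockdown library 2, filled where its adjusted p was under 0.05. In the second fit 17 diamonds are filled, all below 0, and HSPA5 and HERPUD1 move farthest, to -1.56 and -1.19.

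Set beside the promoter elements shown above, the 11 members with a stress element or element II had a median log2 fold change of -0.29, and the 25 with a window and neither had -0.25. Without knockdown library 2 these medians were -0.51 and -0.47. Fitted values were below 0 for 11 of the 11 and for 21 of the 25. On the log2(CPM + 1) scale, the 11 had median differences from the mock mean of -0.39, -0.08 and -0.61 in knockdown libraries 1, 2 and 3. Those of the 25 were -0.36, -0.09 and -0.42. The difference between these sets was not tested. Among members whose groups did not overlap in CPM, EDEM3, ATF6B, PDIA4, OS9, DNAJC10 and SSR1 held no exact match of either element in their windows. HYOU1, PDIA6 and CALR held a match, and DERL3 had no window. The elements lay in genes with large and with small differences, HSPA5 and CALR among them.

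The wider pathway was described with 92 further genes that were listed by function, also with earlier results known. With all 6 libraries 51 of the 92 were lower, the median log2 fold change was -0.04 and 0 passed the threshold in edgeR. At an unadjusted p under 0.05 there were 8 lower and 3 higher, or 11.96% against the background of 15%. DESeq2 called 2 of 92, CEBPB and MCFD2, both lower, where its background was 2.27%, so both counts lay near or under the background. Without knockdown library 2, 14 of the 92 were past the threshold below 0 and 4 above 0, or 19.6% against that fit's background of 13.8%. Of the 12 genes of the PERK and ATF4 arm, 10 were below 0 and the median was -0.39. There, without knockdown library 2, 6 were past the threshold, all lower, against 7.58% of all genes, and the median was -0.68. CEBPB, an ATF4-linked factor gene, was at 4.76 ± 1.81 and 2.49 ± 0.318 CPM (adjusted p = 0.168 in edgeR). TRIB3, a pseudokinase gene induced by ATF4, was at 97.0, 67.7 and 123 CPM in mock and at 26.5, 97.1 and 27.6 CPM in knockdown libraries, and SESN2, another stress gene, at 52.3 ± 13.8 and 32.7 ± 17.5 CPM. EIF2AK3, the gene of PERK itself, was at 12.9 ± 0.685 and 12.8 ± 2.19 CPM.

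In their medians, the remaining lists lay nearer to all genes. Of 23 other folding and glycosylation genes, 16 were below 0 and the median was -0.09. Of these 23, 6 (26.1%) had all 3 knockdown libraries below all 3 mock libraries, and 3 had them above. The share below was 25% for the 40 members and 8.84% for all genes tested. At an unadjusted p under 0.05 in edgeR there were 4 lower and 1 higher, or 21.7%, against 20% of the members and 15% of all genes. By these shares the list lay near the members. FKBP11, a prolyl isomerase gene, was at 12.5 ± 0.704 and 18.8 ± 4.48 CPM (adjusted p = 0.192 in edgeR), and MOGS, the first glucosidase gene, was at 45.4 ± 3.76 and 36.2 ± 0.731 CPM. Of 19 other degradation genes 10 were lower (median -0.04), and of 28 translocon, signal peptidase and COPII genes 12 were lower (median 0.03). MCFD2, a cargo receptor subunit for ER exit, was at 225 ± 9.55 and 159 ± 16.7 CPM (adjusted p = 0.129 in edgeR and 0.00985 in DESeq2). Of 10 other regulators, 3 were lower and 7 higher, with a median of 0.12 (0.21 without knockdown library 2). MBTPS1 and MBTPS2 encode the Golgi proteases that release ATF6. They were at 246 ± 12.2 and 60.9 ± 4.56 CPM in mock and at 200.5 ± 35.7 and 46.0 ± 5.38 CPM in knockdown libraries, and their adjusted p-values without knockdown library 2 were 0.0207 at -0.45 and 0.0282 at -0.49. RTCB, the ligase gene that joins the XBP1 exons, was at 79.2, 61.8 and 61.3 CPM in mock and at 88.2, 59.3 and 102 CPM in knockdown libraries. Its log2 fold change was 0.31 (adjusted p = 0.4995 in edgeR), and 0.50 with an adjusted p of 0.0442 without knockdown library 2.

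Cytosolic heat shock genes, the folding machinery outside the ER, mostly had fitted values on the other side of 0. Of the 19 tested of 20 listed, 17 were higher and 2 lower, and the list's median log2 change was 0.22, against -0.27 for the ER members. With all 6 libraries 0 passed in edgeR and 0 in DESeq2, and 3 had an unadjusted p under 0.05, all higher, or 15.8% against a background of 15%, a share near that of all genes. Leaving out knockdown library 2, 9 of 19 were past the threshold, all higher, where that fit's background of higher calls was 6.24%. HSPA1A, an inducible HSP70 gene whose counts are uncertain because of its near-identical copy HSPA1B, was at 78.2, 53.6 and 55.0 CPM in mock and at 116, 54.6 and 129 CPM in knockdown libraries. The ER form HSPA5 was low in the 2 knockdown libraries where HSPA1A was high, and in knockdown library 2 both lay in the mock range. List medians of the difference from the mock mean, as log2(CPM + 1), were 0.48, -0.23 and 0.35 in knockdown libraries 1, 2 and 3. Mock libraries lay at -0.04, 0.01 and 0.01, so the heat shock list was below mock in knockdown library 2. The difference between the 2 lists itself was not tested.

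**Figure D5:**
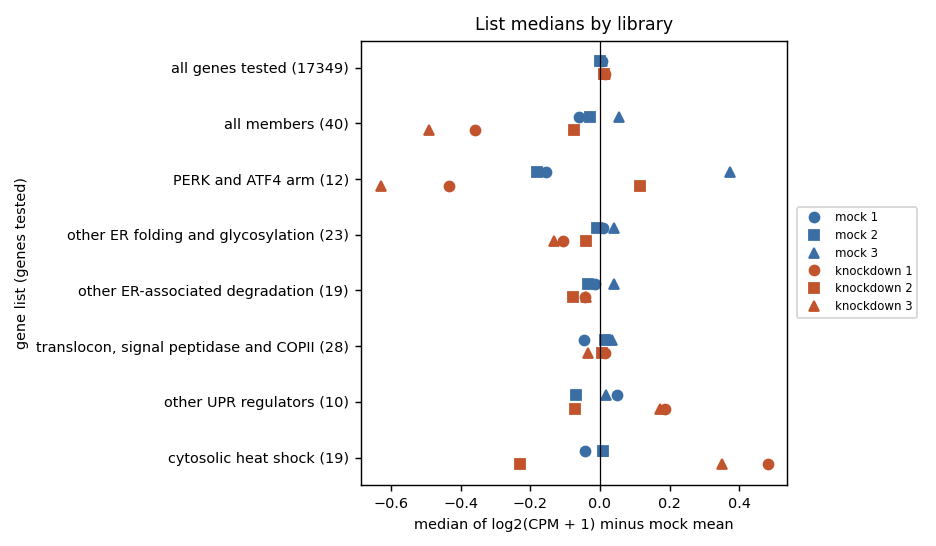
Median over each gene list of log2(CPM + 1) minus the mock mean, in each of the 6 libraries (blue mock, orange knockdown). The members and the PERK and ATF4 arm lie left of mock in knockdown libraries 1 and 3. Cytosolic heat shock genes lie right of mock there and left of mock in knockdown library 2, and the other lists lie closer to 0.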

How the data were processed

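RNA sequencing of 6 H1299 libraries, 3 mock and 3 knockdown, was analysed, with groups and replicate numbers from the sample titles. Raw read counts per gene and FPKM values were deposited by the authors. The submitters' processing notes name GRCh38.p13, featureCounts 2.0.3, HISAT2 2.1.0, bcl2fastq 2.20 and DESeq2. Annotation release, strand setting and treatment of multimapping reads are not given in the sources used here. For this reason overlapping genes (22 of 40 members share exon bases with another gene) and genes with near-identical copies are reported as uncertain.

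The deposited counts entered edgeR 4.0.16 under R 4.3.3 (filterByExpr, TMM, quasi-likelihood F test, Benjamini-Hochberg over the 17349 genes kept), with DESeq2 1.42.0 as an alternative. The code was tested on simulated data. The labels do not state separate cultures for the libraries of a group. The p-values then measure only how far these libraries spread, which may be technical. No 2 libraries agreed within sampling noise (chi-square per degree of freedom at least 13.9). Each SE was derived from the log2 fold change and its F statistic. Counting floors cover counting error only.

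Gene positions are from GENCODE 29, whose exon lengths matched those implied by the counts and FPKM for 39 of 40 members, all but MANF. The members and lists were chosen with earlier results of these data known. Values in every library are given for ERN1, ATF6, ATF6B, XBP1, HSPA5, HSP90B1, CALR, the 12 members with the smallest p and members with a fitted rise; of the other lists, up to 3 genes with the smallest p were eligible, and other genes named were chosen after their values were seen.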

Additional observations from a re-analysis of the deposited data

How the results depend on the processing

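The fall of CCNB1 passed the threshold in every alternative run. The count of members below 0 stayed between 35 and 39 of 40, and their median between -0.47 and -0.16. Counts of calls depended on the setting. DESeq2 called 568 genes, 7 members and 2 of the wider list. Scaling by library totals called 2 genes and 0 members. Without the filter on low counts, edgeR called 1077 genes, 10 members and 7 of the wider list. Leaving out 1 library gave 1 to 2453 genes, 0 to 17 members and 0 to 18 of the wider list, with each highest value without knockdown library 2. A replicate block on the library numbers called 162 genes and 1 member, EDEM3 (adjusted p = 0.0248 in edgeR). In their deviations from the group means over 17349 genes, same-numbered libraries correlated at -0.28, 0.12 and 0.01. Differently numbered mock and knockdown libraries correlated at -0.48 to 0.45. With 3 libraries per group, these values cannot settle whether the numbers pair the libraries. The cause of the differences between settings was not tested. Median shifts of all genes were 0.02 with TMM, 0.01 with DESeq2's size factors and 0.07 with library totals.

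Of the member values under alternatives, 385 kept direction and call, 35 passed the threshold and 20 changed sign. UGGT1 was at -0.024 in DESeq2, -0.010 with DESeq2's size factors in edgeR, -0.033 without the filter, -0.00067 with the replicate block and -0.13 to 0.061 with 1 library left out. SEC61B was at -0.0010 in DESeq2, -0.011 without the filter and -0.062 to 0.097 with 1 library left out. SIL1 was at 0.049 with library totals, 0.0016 with the replicate block and -0.049 to 0.062 with 1 library left out. The other sign changes came only with 1 library left out, with ranges of -0.83 to 0.087 for SDF2L1, -0.18 to 0.045 for CRELD2, -0.094 to 0.13 for DERL2 and -0.053 to 0.26 for WFS1.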

Other observations

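The heptamer GTACTAT, noted in an earlier look at these data, was counted in the longest 3′ untranslated region of each member. It lay in ATF6, HSP90B1 and DNAJC3, or 3 of 40 members (7.50%), against 891 of 13174 tested genes with such a region of at least 50 bases (6.76%), a share near the background. EDEM3, HYOU1, OS9, PDIA4 and ATF6B did not hold it.

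Over the 40 members, the highest mock value was in mock library 3 for 16, in library 1 for 14 and in library 2 for 10. HSPA5, HERPUD1, XBP1 and DNAJB9, named after their values were seen, were highest in mock library 3, while SDF2L1 and CRELD2 were highest in mock library 1. DDIT3, the gene of CHOP in the PERK and ATF4 arm, was at 40.1, 44.5 and 75.4 CPM in mock and at 22.5, 63.1 and 11.1 CPM in knockdown libraries 1, 2 and 3.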
